A study of Mus musculus with 8 samples.

Results

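The genes described here are the transcriptional regulators of mitochondrial and fatty acid metabolism in mouse heart: the PGC-1 coactivator genes Ppargc1a and Ppargc1b, the peroxisome proliferator-activated receptor genes Ppara, Ppard and Pparg, the estrogen-related receptor genes Esrra, Esrrb and Esrrg, and Tfam and Nrf1. They are 10 of the 19938 genes that the arrays measured under a single symbol. The family was chosen by its measured values in the comparison described here, because Ppargc1a had a higher mean and Ppargc1b was lower in every heart given DJ-1. The differences of these genes between the groups are therefore given as a description, without a test.

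PGC-1 coactivators bind no DNA themselves and are recruited by transcription factors, among them the PPARs and the estrogen-related receptors. PPARs pair with retinoid X receptors and are activated by fatty acids, and in heart muscle they switch on the uptake and oxidation of fatty acids. Estrogen-related receptors are orphan nuclear receptors that act on genes of the respiratory chain and the citric acid cycle. NRF1 acts on nuclear genes of the respiratory chain and on Tfam, whose protein packages mitochondrial DNA and starts its transcription.

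Expression was measured on whole-transcript arrays in myocardial tissue of male mice, whose strain is spelled CH3 in the labels, aged 8 to 10 weeks and weighing 25 to 30 g. The placebo group of 4 arrays came from mice that were given phosphate-buffered saline (PBS), and the DJ-1 group of 4 arrays from mice that were given recombinant DJ-1 protein, in both cases 1 hour before ligation. DJ-1 is a redox-sensitive protein encoded by Park7. All hearts of both groups then underwent occlusion of the left anterior descending coronary artery for 45 minutes and reperfusion for 2 hours, so neither group shows unstressed myocardium. The labels name the tissue as myocardium without saying which region was taken, and give the samples of a group the numbers n1 to n4 without stating that each is a separate animal. The spread between samples may then be partly technical.

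Values are log2 expression, and differences are DJ-1 minus placebo on that scale, with the standard error (SE) and 95% confidence interval of a linear model fitted to all genes with limma. The arrays correlated with each other at 0.978 to 0.987 across genes, and their medians lay between 5.25 and 5.35. DJ-1 replicates 3 and 4 stood apart on the first principal component (26.3% of the variance), at 19.61 and 23.5 against -14.98 to 5.31 in the other 6 arrays. The labels also carry sample codes that run on from the placebo to the DJ-1 arrays. If these codes mark an order of processing, that order and the treatment cannot be told apart. Across the whole array, limma with Benjamini-Hochberg adjustment called 0 of 19938 genes at an adjusted p of 0.05 (0% called), and 1194 genes had an unadjusted p under 0.05.

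The stretches before the start sites of 4 genes are shown as the DNA in which letters known to be bound by factors of this pathway were searched. Ppargc1a is the coactivator with the higher mean, Tfam and Ppara are the members whose windows held a searched motif, and Cycs, the cytochrome c gene, is a textbook target of NRF1 and PGC-1. The 120 bases that end just before the start are printed 5′ to 3′ on the strand of the gene, from RefSeq on build GRCm38.p6. Capitals mark the NRF1 core or the ETS element.
Ppargc1a, chr5:51567726-51567845, minus strand: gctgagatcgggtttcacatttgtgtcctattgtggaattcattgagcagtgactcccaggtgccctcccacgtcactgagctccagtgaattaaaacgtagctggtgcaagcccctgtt
Tfam, chr10:71238045-71238164, minus strand: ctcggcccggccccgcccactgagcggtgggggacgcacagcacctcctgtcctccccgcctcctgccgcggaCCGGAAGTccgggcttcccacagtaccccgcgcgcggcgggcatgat
Ppara, chr15:85735656-85735775, plus strand: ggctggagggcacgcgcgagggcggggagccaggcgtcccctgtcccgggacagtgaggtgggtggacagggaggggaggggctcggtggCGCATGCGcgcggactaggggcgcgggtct
Cycs, chr6:50566570-50566689, minus strand: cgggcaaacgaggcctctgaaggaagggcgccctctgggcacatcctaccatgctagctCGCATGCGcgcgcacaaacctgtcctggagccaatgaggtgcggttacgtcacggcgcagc

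Windows from 250 bases before to 50 bases after a start site were searched on both strands for 5 motifs. Of the 10 members, 9 had at least 1 window, 16 in all. Ppargc1b had no window, so the stretch before its start was not searched. All windows of 1 chromosome were left out of the search and of the shares given here. The NRF1 core CGCATGCG was found in the Ppara window, 30 bases before the start, and in 1.87% of all 32851 windows. The ETS element CCGGAAGT, the kind of site that GABP binds, was found in the Tfam window, 47 bases before the start, and in 3.89% of all windows. No member window held the estrogen-related receptor element TCAAGGTCA (0.423% of all windows), the cyclic AMP response element TGACGTCA (1.79%) or the DR1 element of PPARs, searched as 2 copies of AGGTCA separated by 1 base (0.0396%). A match describes letters and not a bound site, and an absent match says only that these letters are not in this window.

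The same letters were then counted before genes of the target lists. Among 44 windows of the estrogen-related receptor and PGC-1 target list, the NRF1 core was present in 4 (9.09%; Cycs, Ogdh and Uqcrc1) and the cyclic AMP response element in 6 (13.6%; Cycs, Mdh2, Ogdh and Uqcrfs1). In the Cycs window the NRF1 core lay 61 bases and the cyclic AMP response element 169 bases before the start. Of that list, only Sdhd held the estrogen-related receptor element, and 2 windows held the ETS element (4.55%, Dlst and Ndufs3). Among 16 windows of genes for transcription and replication of mitochondrial DNA, 2 held the NRF1 core (12.5%; Dna2 and Tfb2m) and 3 the ETS element (18.8%; Polg, Tefm and Twnk). Among 32 windows of PPAR targets, 2 held the NRF1 core (6.25%; Acadm and Etfdh), 3 the ETS element (9.38%; Cpt2, Pex11a and Slc25a20) and none the DR1 element, the estrogen-related receptor element or the cyclic AMP response element. The windows came from 33 of the 42 genes of the first list, 14 of the 18 of the second and 26 of the 36 PPAR targets. Windows of alternative starts of a gene can overlap, so these shares are given as a description.

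All 10 members were transcribed in these hearts at levels above the array background. Each exceeded, on all 8 arrays, the 95th percentile of 1027 olfactory receptor genes (4.74), a class that serves the nose and is used here as a guide to background, and 12551 of the 19938 genes did so. The label of the tissue was borne out by its markers. All 13 cardiomyocyte markers were above that background on all arrays, with Tnnt2, cardiac troponin T, at 13.63 ± 0.05 in placebo and 13.66 ± 0.01 with DJ-1 (SD, n = 4 each).

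Ppargc1a encodes PGC-1alpha, the coactivator that cold, fasting and exercise induce. It stood at 10.73, 10.26, 10.79 and 10.70 in placebo replicates 1 to 4 and at 10.85, 10.86, 11.21 and 10.61 in DJ-1 replicates 1 to 4. The groups overlapped, because DJ-1 replicate 4 lay below 3 of the placebo hearts, while placebo replicate 2 was the lowest of all. The means were 10.62 ± 0.24 and 10.89 ± 0.25 (SD, n = 4 each), a difference of 0.26 (SE 0.15, 95% confidence interval -0.06 to 0.59), or a ratio of 1.20. Without placebo replicate 2 the difference was 0.14, and without DJ-1 replicate 4 it was 0.35. A second, dimmer probe set for Ppargc1a read 9.22, 9.001, 9.43 and 9.19 in placebo and 9.45, 9.37, 9.58 and 8.85 after DJ-1. That probe set also put placebo replicate 2 lowest within its group and DJ-1 replicate 4 lowest of all 8, and its difference was 0.10 (SE 0.16, -0.24 to 0.44).

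Ppargc1b encodes PGC-1beta, the close relative that sustains basal mitochondrial and fatty acid oxidation genes. Its values were 7.53, 7.42, 7.47 and 7.53 in placebo and 7.14, 7.11, 7.31 and 7.05 after DJ-1. Every DJ-1 heart lay below every placebo heart, with a gap of 0.11 between the nearest hearts (0.18 after centring each array on its median, 0.05 after quantile normalization). The means of 7.49 ± 0.05 and 7.15 ± 0.11 (SD, n = 4 each) differed by -0.34 (SE 0.09, -0.54 to -0.14), a ratio of 0.791. Leaving out each heart in turn gave -0.39 to -0.30.

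Within each heart the log2 value of Ppargc1a exceeded that of Ppargc1b by 3.21, 2.84, 3.32 and 3.17 in placebo and by 3.71, 3.76, 3.90 and 3.57 in DJ-1 hearts. The difference between these 2 probe sets does not compare the abundance of the transcripts. It was larger in every DJ-1 heart, with means of 3.13 ± 0.20 and 3.73 ± 0.14 (SD, n = 4 each), 0.60 apart. This restates the opposite differences for which the family was chosen, since it adds them, and is no separate result.

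**Figure D1:**
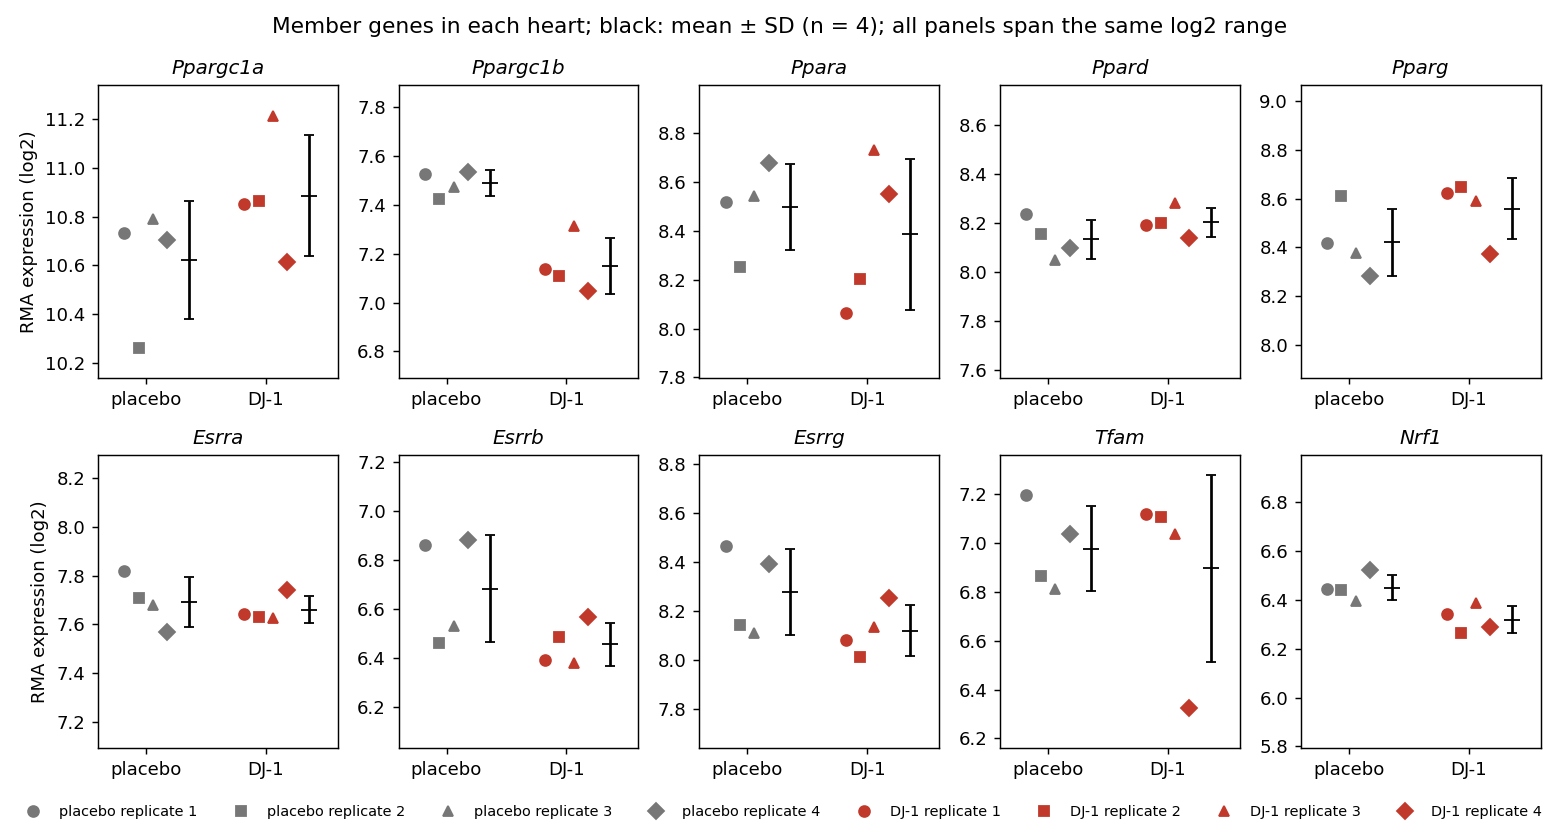
Log2 RMA expression of the 10 member genes (1 panel each) in the 4 placebo hearts (grey) and 4 DJ-1 hearts (red), with the marker shape giving the replicate number and black bars the mean ± SD. Ppargc1b is lower in all DJ-1 hearts, Nrf1 by a margin of only 0.0096, and the groups overlap in the other 8 genes.

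Of the PPARs, Ppara encodes the isoform that dominates fatty acid oxidation in heart muscle. It read 8.52, 8.25, 8.54 and 8.68 in placebo and 8.06, 8.20, 8.73 and 8.55 after DJ-1. The DJ-1 hearts spanned the whole range of the gene, with replicates 1 and 2 lowest and replicate 3 highest of all 8. The difference was -0.11 (SE 0.15, -0.44 to 0.22). Without DJ-1 replicate 1 it was -0.0032, without replicate 3 it was -0.23, and without replicates 3 and 4, the arrays that stood apart, it was -0.37.

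Ppard, the isoform found in most tissues, read 8.24, 8.15, 8.05 and 8.10 in placebo and 8.19, 8.20, 8.28 and 8.14 after DJ-1. These values overlapped within a narrow range, and the difference was 0.07 (SE 0.09, -0.12 to 0.26), with 0.04 without placebo replicate 3 and 0.10 without placebo replicate 1. Pparg, best known for fat cell differentiation and also active in macrophages, read 8.42, 8.61, 8.38 and 8.28 in placebo and 8.62, 8.65, 8.59 and 8.37 after DJ-1. Placebo replicate 2 stood with the 3 high DJ-1 hearts and DJ-1 replicate 4 with the placebo hearts. The difference was 0.14 (SE 0.10, -0.09 to 0.37), with 0.09 without placebo replicate 4, 0.20 without placebo replicate 2, and 0.21 when DJ-1 replicates 3 and 4 were left out. Of the 8 adipocyte markers measured, 4 were above background on all arrays, and Adipoq, adiponectin, lay at 3.59 ± 0.21 in placebo and 3.58 ± 0.11 after DJ-1, within the range of the olfactory receptors.

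The estrogen-related receptor genes were all 3 lower on average after DJ-1, and in each the groups overlapped. Esrra, the isoform that PGC-1alpha induces together with its targets, read 7.82, 7.71, 7.68 and 7.57 in placebo and 7.64, 7.63, 7.63 and 7.74 after DJ-1. Here DJ-1 replicates 1 to 3 lay close together and replicate 4 stood above them. The difference of -0.03 (SE 0.09, -0.23 to 0.16) turned to 0.0086 without placebo replicate 1 and to 0.0091 after cyclic loess normalization.

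Esrrb, a receptor first known from stem cells and placenta, read 6.86, 6.46, 6.53 and 6.88 in placebo and 6.39, 6.48, 6.38 and 6.57 after DJ-1. Esrrg, the isoform of highly oxidative tissues, read 8.47, 8.14, 8.11 and 8.39 in placebo and 8.08, 8.01, 8.13 and 8.26 after DJ-1. Both genes had placebo replicates 1 and 4 as the highest hearts, clear of the other placebo hearts. Esrrb differed by -0.23 (SE 0.12, -0.49 to 0.03) and Esrrg by -0.16 (SE 0.11, -0.40 to 0.08). Without placebo replicate 1 the difference of Esrrg was -0.10, and without placebo replicate 3 it was -0.21.

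Tfam read 7.20, 6.86, 6.81 and 7.04 in placebo and 7.12, 7.11, 7.04 and 6.32 after DJ-1. DJ-1 replicate 4 was far below the other 7 hearts and set the sign of the difference, which was -0.08 (SE 0.17, -0.46 to 0.30) over all arrays, 0.11 without that heart and -0.0083 without placebo replicate 1. Nrf1, whose product binds the core shown in capitals before Ppara and Cycs, read 6.44, 6.44, 6.39 and 6.52 in placebo and 6.34, 6.26, 6.38 and 6.29 after DJ-1. The DJ-1 hearts were lower without overlap, but by 0.0096, and the groups overlapped after quantile normalization. The difference was -0.13 (SE 0.08, -0.32 to 0.05).

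Of the 10 members, 3 were higher and 7 lower on average after DJ-1. Their median difference was -0.10, where all genes had a median of 0.0082, with 10470 higher and 9468 lower. None of the 10 was called by limma at an adjusted p of 0.05. Groups did not overlap, with DJ-1 lower, in 2 members, Ppargc1b and Nrf1, and in 1.68% of all genes. No member was higher without overlap, which 1.54% of all genes were. The members were chosen with this contrast, so nothing is read from these counts. The standard errors and confidence intervals come from limma, which draws the variance of each gene toward that of all genes. They can therefore be wider or narrower than the gene's own spread between 4 arrays a group would give. The intervals also do not account for the choice of the family. Over all genes the median reach of the intervals was 0.256 to each side. Tissue was measured in bulk, and fewer cells of a type cannot be told apart from less RNA per cell.

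**Figure D2:**
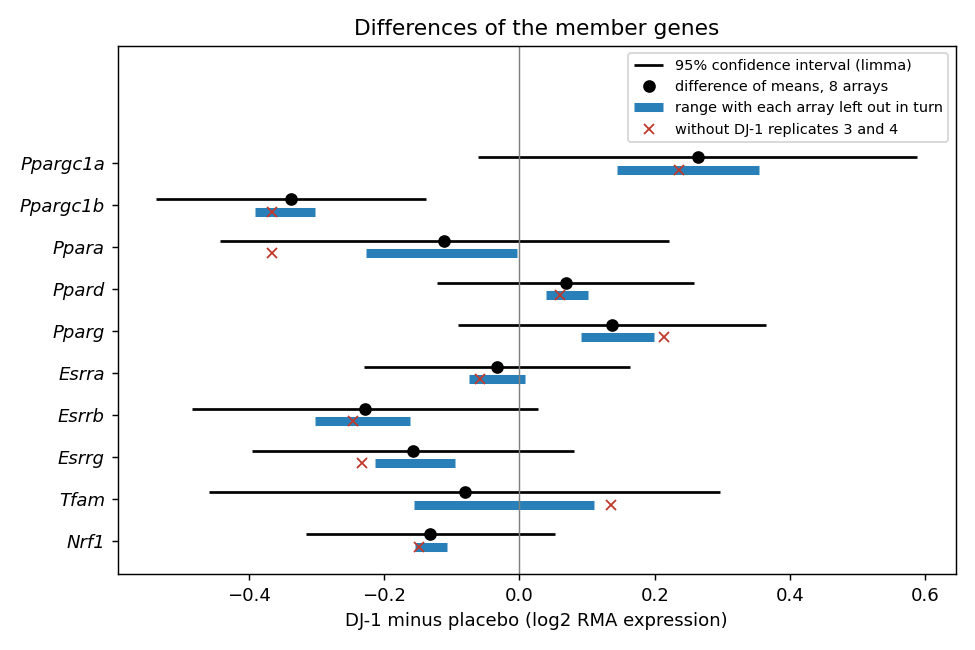
DJ-1 minus placebo difference of each member (log2), with black points for all 8 arrays, black lines for the 95% confidence interval of limma, blue bars for the range with each array left out in turn and red crosses for the value without DJ-1 replicates 3 and 4. Ppargc1b lies at -0.34 and Ppargc1a at 0.26, the values by which the family was chosen, and the bar of Tfam crosses 0.

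The partners of these regulators were measured in 19 of 22 listed genes, of which 7 had a higher and 12 a lower mean (median -0.04). None passed in the limma comparison. Cited2, a coregulator that binds CBP and p300, was the only one without overlap, at 10.34, 10.10, 10.21 and 10.14 in placebo and 10.41, 10.56, 10.64 and 10.59 after DJ-1, a difference of 0.35 (SE 0.09). Across all genes, 1.54% were higher and 1.68% lower without overlap. Among the retinoid X receptors, the obligate partners of PPARs, Rxra differed by -0.23 (SE 0.11), Rxrb by 0.01 (SE 0.09) and Rxrg by 0.06 (SE 0.09), all with overlap. Pprc1, the third gene of the PGC-1 family, differed by 0.08 (SE 0.12), and Nrip1, a corepressor of these receptors, by 0.08 (SE 0.09). Lpin1, which amplifies PGC-1alpha and PPARalpha activity, differed by -0.07 (SE 0.17).

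All 26 upstream regulators were measured, with 6 higher and 20 lower means (median -0.06), and none passed or separated the groups. Prkaa1 and Prkaa2, the catalytic subunits of AMP-activated kinase, differed by 0.04 (SE 0.13) and -0.15 (SE 0.12). Sirt1, the deacetylase that activates PGC-1alpha, differed by 0.15 (SE 0.12).

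PPAR target genes were measured in 31 of 36 listed cases, with 18 higher and 13 lower means (median 0.01), and none passed. Pdk4, the kinase that turns glucose oxidation off, was the only one without overlap. It read 12.16, 12.08, 12.12 and 11.71 in placebo and 12.68, 12.58, 12.56 and 12.44 after DJ-1, a difference of 0.55 (SE 0.11). Pdk4 and Cited2 were among the results known when these lists were drawn up. Of all genes, 1.54% were higher and 1.68% lower without overlap, so the separation of these genes is only described. Angptl4, an inhibitor of lipoprotein lipase, had a difference of the same size as Pdk4, 0.56, but with an SE of 0.32. Its values were 6.59, 6.11, 5.93 and 5.60 in placebo and 7.17, 7.13, 5.57 and 6.62 after DJ-1, so that DJ-1 replicate 3 was the lowest of all 8. Ucp3, a mitochondrial carrier that fatty acids induce, spread from 5.87 to 7.85 within the DJ-1 group. Of the genes of fatty acid handling, Acadm, which starts the oxidation of medium chains, differed by 0.07 (SE 0.09), Cd36, the fatty acid transporter, by -0.01 (SE 0.09) and Fabp3, the heart fatty acid binding protein, by 0.003 (SE 0.08). Others lay farther from 0 with overlapping groups. The fatty acid hydroxylase genes Cyp4a10 and Cyp4a14 differed by 0.38 (SE 0.18) and 0.40 (SE 0.18). Pex11a, of peroxisomes, differed by -0.24 (SE 0.12), and these 3 were singled out after their values were seen. The group means of Cyp4a10 (4.36 in placebo, 4.73 after DJ-1) and Cyp4a14 (3.26 and 3.66) lay below the olfactory receptor percentile of 4.741. Of the 31 PPAR targets, 28 were above that background on all arrays.

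Targets of the estrogen-related receptors and PGC-1, which include the respiratory chain and the citric acid cycle, were measured in 40 of 42 listed cases. Their differences ran only from -0.19 (Ndufb8, a subunit of complex I) to 0.08 (Sdhd, a subunit of complex II), with 17 higher and 23 lower (median -0.01). None passed, with 0.832 as the smallest adjusted p of limma in the list, and none separated the groups. Cycs, whose upstream stretch is printed above, differed by -0.04 (SE 0.09). The 18 genes for transcription and replication of mitochondrial DNA ran from -0.21 (Mterf2) to 0.12 (Mterf3), with 6 higher and 12 lower (median -0.04), and none passed or separated the groups. These counts of separated groups are for the values as deposited, in which 1.54% of all genes were higher and 1.68% lower without overlap. Cited2 and Pdk4 separated them under other scalings too, while Nrip1 and Slc25a4, the heart's main ADP/ATP carrier, were higher without overlap only after quantile normalization (gaps of 0.0082 and 0.0068). Polg, the mitochondrial DNA polymerase, and Ppp3cb, a calcineurin subunit, were lower without overlap only after centring each array on its median (gaps of 0.014 and 0.0092).

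**Figure D3:**
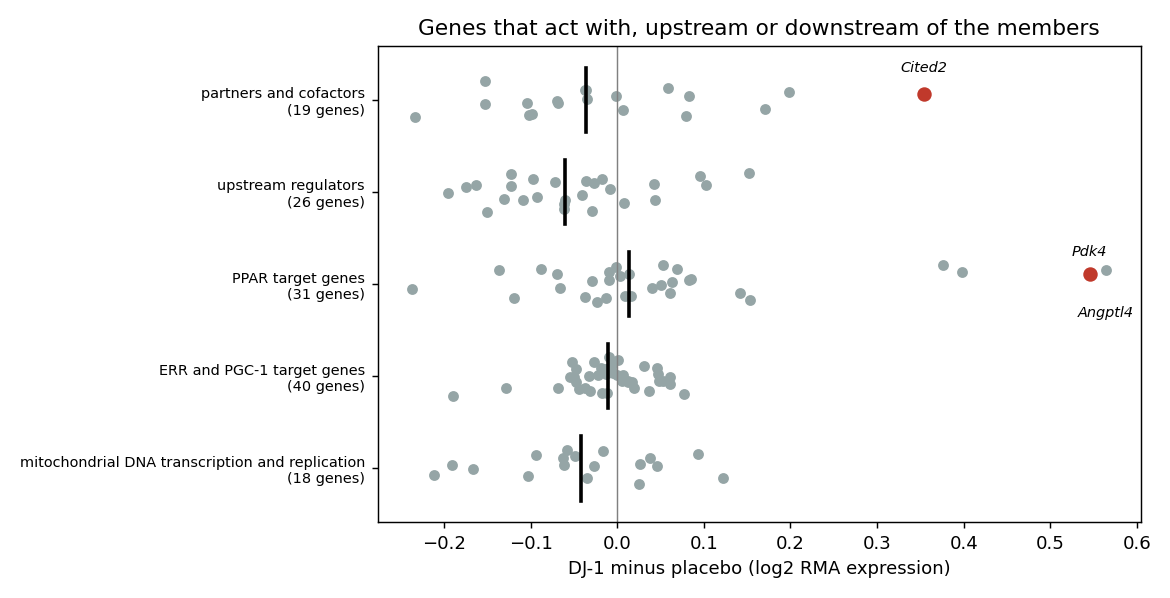
DJ-1 minus placebo difference (log2) of each measured gene in 5 lists that act with, upstream or downstream of the members, with black bars for the median of each list and red points for genes whose groups do not overlap. The medians lie between -0.06 and 0.01, and Cited2 and Pdk4 are the only genes that separate the groups in the values as deposited. Of all genes, 1.54% are higher and 1.68% lower without overlap.

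Because the group difference had been used to choose the family, the hearts were also compared within their groups. Each gene was centred on its group mean, and the members were correlated pairwise over the 8 arrays by an exact permutation test within groups (576 orders, two-sided), with adjustment over the 45 pairs. No pair passed (0 of 45 at an adjusted p of 0.05, 1 at an unadjusted p under 0.05). The smallest p the design allows is 0.00174, which for a lone pair would give an adjusted p of 0.0781, so a single pair could not pass.

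Ppargc1a and Ppargc1b, whose means differed in opposite directions between the groups, ran together within them. Pearson's r was 0.859 (exact permutation p = 0.0208, adjusted 0.778) and Spearman's rho 0.759 (exact permutation p = 0.0625), with r = 0.771 within placebo and 0.978 within DJ-1 hearts. It was 0.864 without the 2 hearts whose group-centred Ppargc1a lay farthest from the median, placebo replicate 2 and DJ-1 replicate 4. With each heart left out it was 0.796 (without DJ-1 replicate 3) to 0.939. DJ-1 replicate 3 had the most and DJ-1 replicate 4 the least of both transcripts within its group, and placebo replicate 2 had the least of both among placebo hearts.

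Esrrb and Esrrg had an r of 0.858 and a rho of 0.814 (exact permutation p = 0.101 and 0.156, adjusted 0.778 and 0.871), with r = 0.956 within placebo and 0.488 within DJ-1 hearts. Without the 2 farthest hearts r was 0.838. Ppargc1b and Nrf1 had an r of 0.728 and a rho of 0.759 (exact permutation p = 0.0521 and 0.066, adjusted 0.778 and 0.871), and 0.592 without the 2 farthest hearts. Ppara and Pparg ran in opposite directions, with r = -0.653 and rho = -0.671 (exact permutation p = 0.0938 and 0.111, adjusted 0.778 and 0.871). None of these passed, and 32 of the 45 pairs had a positive r.

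The members were next set against the mean of 5 gene lists, a family of 50 relations that was chosen after the values had been seen. None passed adjustment (0 of 50, and 4 at an unadjusted p under 0.05). Pparg had the largest correlation, with the neutrophil markers, at r = 0.930 and rho = 0.910 (exact permutation p = 0.00174 and 0.00347, adjusted 0.0868 and 0.174), and the first of these p-values is the smallest the design can give. The relation was 0.980 within placebo and 0.866 within DJ-1 hearts, 0.945 without the 2 farthest hearts and 0.878 to 0.982 with each heart left out. Ppara ran against the same markers, with r = -0.820 and rho = -0.857 (exact permutation p = 0.0243 for each, adjusted 0.405 and 0.608), and -0.979 without the 2 farthest hearts.

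The neutrophil markers themselves varied widely between hearts. Their mean, relative to the mean of all 8 arrays, was -0.16, 0.78, -0.56 and -1.44 in placebo and 0.81, 1.06, -0.02 and -0.46 after DJ-1. All 12 markers were higher on average after DJ-1 (median difference 0.75), none passed in limma, the groups overlapped in all, and 6 of the 12 were above background on all arrays. S100a8, a calcium-binding protein abundant in neutrophils, ran from 3.89 to 7.11 in placebo and from 4.89 to 7.61 in DJ-1 hearts. The part of neutrophils in the values of Pparg and Ppara was not tested.

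Ppara and Ppargc1b had the largest correlations with the mean of the cardiomyocyte markers, which did not pass adjustment. For Ppara r was 0.846 and rho 0.790 (exact permutation p = 0.0122 and 0.0417, adjusted 0.304 and 0.637), and r was 0.693 without the 2 farthest hearts, 0.616 after centring each array on its median and 0.727 to 0.936 with each heart left out. For Ppargc1b r was 0.801 and rho 0.735 (exact permutation p = 0.0365 and 0.066, adjusted 0.456 and 0.637), and r was 0.816 without the 2 farthest hearts and 0.589 (without DJ-1 replicate 3) to 0.889 with each heart left out. Ppargc1a and Nrf1 followed with r = 0.717 and 0.647 and rho = 0.711 and 0.470 (exact permutation p for r 0.0816 and 0.137, adjusted 0.583 and 0.655). Pparg and Esrra were negative, at r = -0.440 and -0.313. The cardiomyocyte list had 4 higher and 9 lower means (median -0.03), and its mean level ran from 12.61 to 12.76 in placebo and from 12.57 to 12.73 in DJ-1 hearts. Its part in the lower Ppargc1b was not tested. Of the other markers, 5 of 12 endothelial, 3 of 11 fibroblast and 4 of 10 macrophage genes had a higher mean, and none passed. The endothelial differences ran from -0.48 (Kdr, SE 0.16, -0.84 to -0.13) to 0.23 (Cldn5, SE 0.22). Those of fibroblasts ran from -0.31 (Lum, SE 0.13, -0.59 to -0.02) to 0.09 (Mfap5, SE 0.18), and those of macrophages from -0.13 (Csf1r) to 0.22 (Fcgr1). The groups overlapped in each of these genes. Gsn, the actin-severing gelsolin of the fibroblast list, was lower without overlap (difference -0.21, SE 0.08). Of all genes, 1.68% were lower and 1.54% higher without overlap. Ucp1, the uncoupling protein of brown fat, was higher without overlap but at a level within the background (3.97 ± 0.09 and 4.17 ± 0.13, SD, n = 4 each).

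The relations of the regulators with the lists of their own targets did not pass either. With the mean of the PPAR targets, r was -0.453 for Ppara, 0.0368 for Ppard, -0.0534 for Pparg, -0.00086 for Ppargc1a and -0.163 for Ppargc1b. The corresponding rho was -0.561, -0.0488, 0.0491, -0.221 and -0.0245 (exact permutation p for r 0.307 to 0.997, adjusted 0.698 to 0.997). These values were not stable. Without the 2 farthest hearts r was 0.110, 0.251, 0.267, -0.924 and 0.909, and for Ppargc1a it was 0.555 within placebo and -0.439 within DJ-1 hearts.

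With the mean of the estrogen-related receptor and PGC-1 targets, r was -0.0852 for Esrra, 0.707 for Esrrb, 0.651 for Esrrg, 0.536 for Ppargc1a and 0.365 for Ppargc1b. The corresponding rho was -0.075, 0.805, 0.712, 0.196 and 0.442 (exact permutation p for r 0.108 to 0.861, adjusted 0.655 to 0.978). Without the 2 farthest hearts r was 0.0337, 0.244, 0.792, -0.107 and 0.962. Within placebo hearts r was -0.183, 0.850, 0.687, 0.901 and 0.965. Within DJ-1 hearts it was 0.368, -0.191, 0.531, -0.190 and -0.0199, so only Esrrg kept its sign in both groups. Tfam had an r of 0.687 and a rho of 0.732 with the genes of mitochondrial DNA transcription and replication (exact permutation p = 0.0521 and 0.0747, adjusted 0.521 and 0.637), and 0.777 without the 2 farthest hearts.

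**Figure D4:**
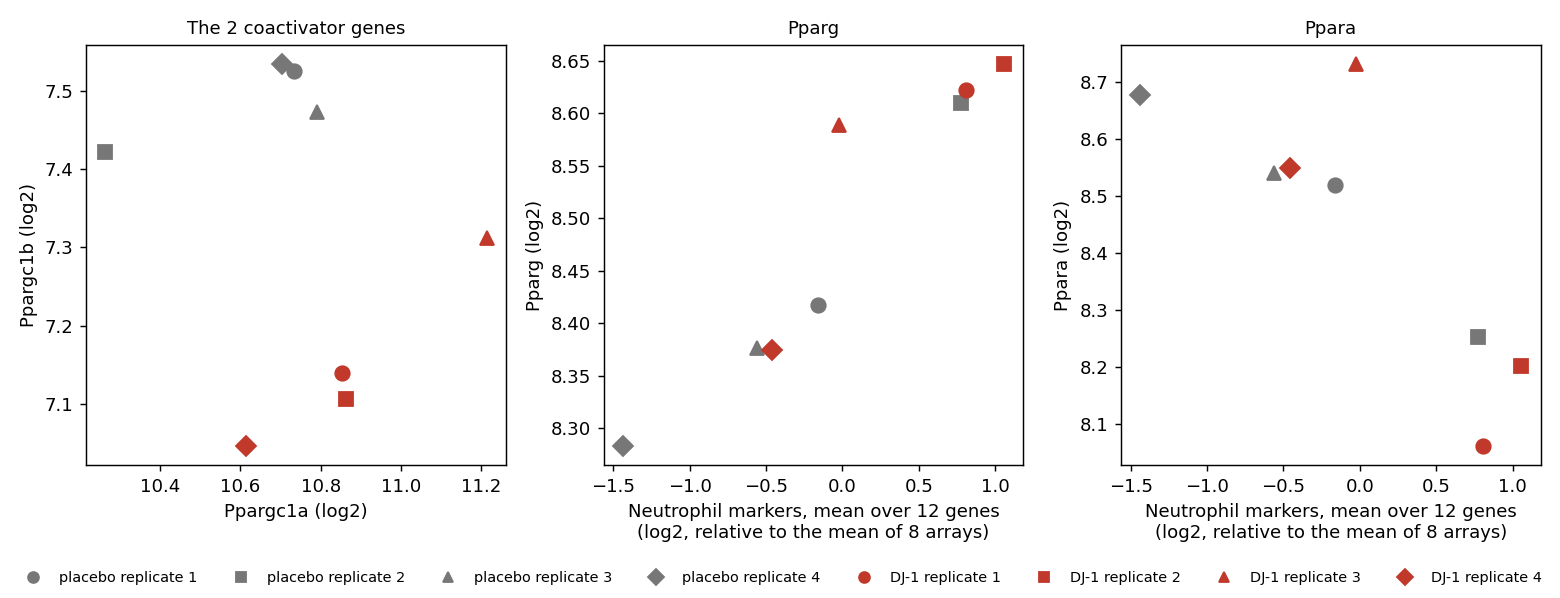
Log2 expression per heart (grey placebo, red DJ-1, shape for the replicate number): Ppargc1b against Ppargc1a, and Pparg and Ppara against the mean of 12 neutrophil markers relative to the mean of 8 arrays. Ppargc1b runs with Ppargc1a within each group while the DJ-1 hearts lie lower, Pparg runs with the neutrophil markers and Ppara against them.

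Among the 13693 genes whose mean over the 8 arrays was above the olfactory receptor percentile, those whose group-centred pattern over the 8 arrays was most like Ppargc1a were Dnajb2, a cochaperone (r = 0.991), Polq, a DNA polymerase (0.973), and Aopep, an aminopeptidase (0.973), and 57 genes had an r over 0.9. The most like Ppargc1b were Gm10369 (0.966), Csrp3, the muscle LIM protein of the cardiomyocyte Z-disc (0.960), and Trim35 (0.957), and 45 genes had an r over 0.9. They are the top of a long ranking and are given as a description. Between DJ-1 and placebo these 6 genes differed by -0.08 to 0.08.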

How the data were processed

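Total RNA (100 ng, RNA integrity number above 7) was, per the labels' protocols, hybridised to Affymetrix arrays. The deposited values are log2 expression of 35556 probe sets, made by the authors with RMA, per the submitters' processing notes; the genome build, the software and its version: not given in the sources used here. RMA brings arrays to a common distribution, so a shift of all genes would not be seen. Probe sets with 1 symbol in the platform annotation (21789) were kept, those with several (1621) or none (12146) were left out, and the one with the highest mean was taken per gene.

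Groups were compared with limma 3.58.1 (R 4.3.3; lmFit and eBayes, two-sided, no covariate), and p-values were adjusted by Benjamini-Hochberg over 19938 genes. Correlations were computed in Python 3.11.15 with numpy 2.4.6. Both were tested on simulated data. The changes and correlations planted there were larger than those of the members, so recovery of effects of the members' size was not tested. The number of arrays limits the precision: the median SE was 0.117. The members and the 15 gene lists (210 of 222 entries measured) were chosen with earlier results of these data known. The genes named were the members, list genes picked for their role, other list genes whose groups did not overlap, and the 3 genes most like each coactivator. Genes were also named for a searched motif, as the ends of a list, for a result under another setting, or after their values were seen. Promoter windows came from RefSeq (GRCm38.p6). Alternatives covered scaling, probe set choice, background, variance trend, array weights, a replicate block and leaving out arrays. List genes without a single-symbol probe set were not analysed here.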

Additional observations from a re-analysis of the deposited data

Results flagged for a closer look

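In groups of 4 hearts, the highest or lowest heart was compared with the gap to its nearest neighbour by Dixon's criterion at 95%. Among 118 groups (59 genes), 6 held a heart that stood apart, and chance gives about 1 in 20. Of the 20 member groups, 3 did. Ppargc1a in placebo replicate 2 was the lowest, at 10.2639, with the others between 10.70 and 10.79. Esrra in DJ-1 replicate 4 was the highest, at 7.7426, with the others between 7.63 and 7.64. Tfam in DJ-1 replicate 4 was the lowest, at 6.3231, with the others between 7.04 and 7.12.

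Among the other genes, Rxrg was lowest in placebo replicate 2 at 9.8346 (others 10.05 to 10.07), Pprc1 was lowest in DJ-1 replicate 3 at 6.0084 (others 6.32 to 6.39), and Cd36 was highest in DJ-1 replicate 2 at 12.4698 (others 12.28 to 12.30). Placebo replicate 2 and DJ-1 replicate 4 each appeared in 2 of the 6.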

How the results depend on the processing

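In the limma comparison 0 genes passed in 16 of 17 alternatives, and leaving out each replicate gave 0 to 1 genes. The 1 gene was Pramel27, without DJ-1 replicate 3. With the replicate number as a replicate block, 0 genes passed and 1302 had an unadjusted p under 0.05, against 1194 without it. Same-numbered arrays deviated together at r = 0.005, 0.171, 0.177 and 0.008, so the numbers were not taken to pair the hearts. Over all alternatives 833 to 1480 genes (without placebo replicate 4 and without DJ-1 replicate 2) or, among 13693 genes above background, 781 genes had an unadjusted p under 0.05. The sign of the difference was kept in all 17 alternatives by 8 members. Esrra kept it in 15. Tfam kept it in 14, and gave 0.0037 with array weights and 0.14 without DJ-1 replicates 3 and 4. The number of members with a lower mean was 6 or 7. No member pair passed in 12 alternatives, and no relation with a list mean in 12 alternatives chosen after seeing the data, but a lone pair could not have passed, so these counts of 0 say nothing about stability. Genes of the 5 pathway lists whose groups did not overlap numbered 2 as deposited, 4 after quantile normalization and 4 after median centring, both chosen after seeing the data. As deposited, 1.54% of all genes were higher and 1.68% lower without overlap. The shares of all genes under the other scalings are not given here, so the change from 2 to 4 is only described. Depth is not given by arrays, and the signal of all members was above background.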
